A study of Mus musculus with 4 samples.

Results

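The SOX genes other than Sox9 were read in basal mouse tail epidermis that expresses an activated Hedgehog transducer, with Sox9 intact or deleted. The members were Sox2, Sox4, Sox5, Sox6, Sox7, Sox11, Sox12, Sox13, Sox15 and Sox18, taken by gene symbol from the platform annotation of the array, so that they are 10 of the 18193 genes measured, and they were covered by 34 of the 45037 probe sets tested (a probe set is a group of short oligonucleotides that reads 1 transcript or transcript group). The rule that picks the probe sets goes by symbol and uses no measured value, although the family was chosen with earlier results of these data known. Of the 10 genes, Sox2, Sox13 and Sox15 were called lower in the cells with Sox9 deleted, and none was called higher.

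The 4 samples fell in 2 groups of 2 arrays. The SmoM2 group carried K14CreER:SmoM2, in which Cre recombinase, driven by the keratin 14 promoter of basal keratinocytes and activated by tamoxifen, switches on SmoM2, a constitutively active form of Smoothened. The Sox9cKO group carried K14CreER:SmoM2:Sox9cKO, so that the same recombinase also deleted Sox9. Every mouse of both groups received 2.5 mg tamoxifen on each of 10 days and was killed 9 weeks after the first dose, and the sorted basal interfollicular cells carried integrin alpha 6 but not CD34, a surface marker of bulge stem cells. All 4 samples therefore share SmoM2 and the recombinase, and no sample without SmoM2 was analysed here. The labels do not give the number of mice behind a replicate, so every p-value here reflects only the variation among 4 samples, which may be technical. In sorted bulk cells, fewer cells of a type and less RNA per cell cannot be told apart.

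SOX proteins are transcription factors that bind and bend DNA through an HMG box, a domain first described in the sex-determining factor SRY. They are sorted into groups by the likeness of that domain, and factors of the same group often act on the same sites. Group B1 includes Sox2, group C holds Sox4, Sox11 and Sox12, group D holds Sox5, Sox6 and Sox13, group F includes Sox7 and Sox18, and group G is Sox15. Sox9 itself belongs to group E. In skin, Sox9 is known for hair follicle stem cells and the outer root sheath, and Sox2 for the dermal papilla and Merkel cells.

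Array values are log2 signals, so a difference of 1 is 2-fold. The medians of the 4 arrays lay between 5.45 and 5.48, and the correlation over probe sets was at least 0.991 within a group and 0.978 to 0.980 between groups, probe sets not being independent replicates. The 18S rRNA control was lower in replicate 2 of each group, at 10.09 and 9.87, than in replicate 1, at 11.24 and 11.12. The keratins that define basal cells were bright on every array, Krt5 at 13.20 to 13.41 and Krt14 at 13.15 to 13.76, while Cd34 measured 3.75 to 4.15. Over all 18193 genes, 8419 had a negative change and 6.19% were called. Of 11 measured basal keratinocyte genes, 9 had a negative change and 2 were called. These were the laminin genes Lamb3 and Lama3, both lower in Sox9cKO (log2 changes of -1.25 and -1.12). Lamb3 and Lama3 missed the threshold without SmoM2 replicate 2 (adjusted p = 0.0704 and 0.0753), and Lama3 without Sox9cKO replicate 1 (0.0590) and with its probe sets averaged (change -0.56, 0.0915). The median change of that list was -0.45, which is the value of its middle gene, the sort marker Itga6. The list averaged 11.17 and 11.53 in SmoM2 and 10.77 and 10.89 in Sox9cKO. Its part in the SOX values was not tested. As a yardstick for signal without transcript, 46 probe sets of 27 genes restricted to other organs (such as albumin, insulin and protamines) had means between 3.11 and 6.34 at the 5th and 95th percentiles. By their mean over the arrays, 27 of the 34 SOX probe sets lay at or below 6.34 and 7 above it.

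The deletion was read first. At the Sox9 probe set 1451538_at the signal was 10.21 and 10.02 with Sox9 intact, and 6.75 and 5.70 with Sox9 deleted. The Sox9cKO arrays were both far lower and also differed from each other, with replicate 2 the lower. The change was -3.89 on the log2 scale (SE 0.31, adjusted p = 0.00171, limma over all probe sets). The probe sets 1424950_at and 1433889_at had log2 differences of -0.75 and -0.41 and did not pass (adjusted p = 0.148 and 0.309 in the same fit). At 1424950_at the signal was 8.77 and 9.27 in SmoM2 and still 8.06 and 8.48 in Sox9cKO, above the organ-restricted range. These values do not show that Sox9 RNA was absent from the Sox9cKO samples. No label places any of the 3 probe sets inside or outside the deleted exons, and one outside would check nothing.

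By limma over all probe sets with Benjamini-Hochberg adjustment, 3 of the 34 SOX probe sets were called at an adjusted p under 0.05, all of them lower in Sox9cKO. Among all probe sets 3.82% were called, 2.34% lower and 1.48% higher. At an unadjusted p under 0.05 in the same fit, 3 SOX probe sets were higher, against 3036 of all 45037. After adjustment the count called higher was 0, also 0 in limma with an intensity trend and robust prior, and 4 with replicate as a block. It was 3 without Sox9cKO replicate 1 and 5 without Sox9cKO replicate 2, all of Sox5 and Sox6. Arrays of the genotypes did not overlap at 15 of the 34, against 44.4% of all probe sets, a share near the background. The median log2 change of the 34 was 0.15, against 0.01 over all probe sets, with 24 positive and 10 negative. Counted once per gene at its probe set of highest mean, 3 of 10 genes were called, against 6.19% of 18193 genes, where 3.53% were called lower and 2.66% higher. With 2 arrays against 2, an exact permutation test of 1 gene cannot go below p = 0.333, so each call depends on limma's pooled estimate of variance.

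**Figure D1:**
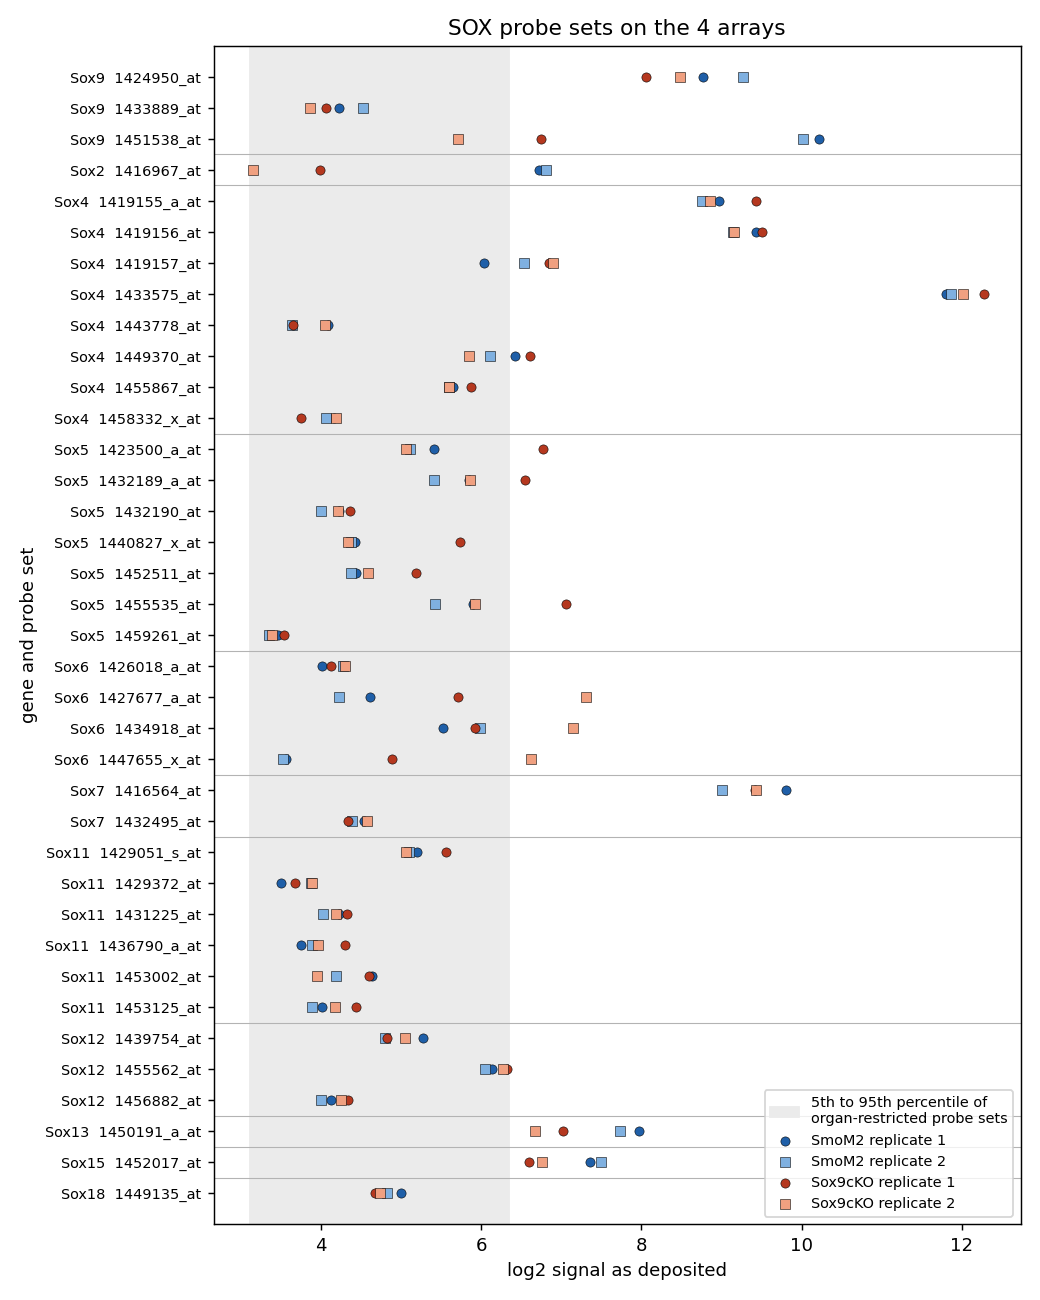
Log2 signal as deposited (x axis) of 3 Sox9 and 34 other SOX probe sets (y axis), 1 point per array, with SmoM2 arrays in blue and Sox9cKO arrays in red and the 5th to 95th percentile of organ-restricted probe sets shaded. Sox2 moved from 6.72 and 6.81 to 3.98 and 3.15, while most Sox5, Sox11 and Sox12 points lie inside the shaded range.

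Sox2, the group B1 factor that maintains pluripotent, neural and other progenitor cells, had the largest change of the 34 probe sets. Its only probe set, 1416967_at, measured 6.72 and 6.81 on the SmoM2 arrays and 3.98 and 3.15 on the Sox9cKO arrays. The genotypes did not overlap, and the SmoM2 arrays lay within 0.09 of each other while the Sox9cKO arrays differed by 0.84. The group means were 6.76 ± 0.06 and 3.56 ± 0.59 (SD, n = 2 arrays each), so Sox2 fell by 3.20 (SE 0.26). That is a 9.20-fold difference, with adjusted p = 0.00175 by limma over all probe sets. Both Sox9cKO values were inside the range of the organ-restricted probe sets, as was the mean over the 4 arrays (5.16), so the size of the fall is not exact. The SmoM2 values were above that range. They were at the level of its brightest genes, Neurod2 at 6.66 to 7.08 and Sftpc at 6.54 to 6.89. The call held without any 1 array, with changes of -3.62 to -2.78 and adjusted p of 0.00104 to 0.0116.

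No transcript around Sox2 was called. Sox2ot, the noncoding RNA whose gene spans Sox2, was dim on all arrays, at 3.12 to 3.49 (log2 change 0.20, adjusted p = 0.638). The nearest measured protein-coding genes were Fxr1, an RNA-binding protein gene, at 9.58 and 9.32 in the group means (log2 change -0.25), and Atp11b, a phospholipid flippase gene, at 9.89 and 9.84 (log2 change -0.05), with adjusted p of 0.442 and 0.905 in the gene fit. Of the 20 nearest measured neighbours of the 10 SOX genes, 1 on each side, 0 were called by limma, where 6.19% of all genes were called, so the count is near the background.

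Sox2 also marks Merkel cells, touch receptor cells of the epidermis, so their markers were read beside it. None of 13 measured Merkel genes was called, against 6.19% of all genes, and 12 had means at or below 6.34. The list averaged 4.85 and 4.73 with Sox9 intact, and 4.84 and 4.79 with Sox9 deleted. Atoh1, the factor that specifies Merkel cells, measured 4.22 to 4.54 over the arrays and Krt20, their defining keratin, 4.03 to 4.18, so both were inside the organ-restricted range in every sample. Of 12 genes of fibroblasts and the dermal papilla, another site of Sox2, 11 were in that range. None of the 12 was called, against the same 6.19% of all genes, with list means of 4.51 and 4.46 in SmoM2 and 4.63 and 4.64 in Sox9cKO.

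The genes whose values most resembled those of Sox2 over the 4 arrays were Myo5b, an unconventional myosin of vesicle transport, Prss12, a secreted serine protease, and Pla2g7, a phospholipase that degrades platelet-activating factor. Likeness was the root mean square difference of log2 values after each gene's own mean was removed, and it was 0.08, 0.11 and 0.18. Myo5b measured 8.69 and 8.98 in SmoM2 and 6.08 and 5.32 in Sox9cKO. All of these genes have a high pair of SmoM2 arrays and a lower value in Sox9cKO replicate 2 than in replicate 1. They were picked by likeness to Sox2 over these arrays, so the shared pattern is no separate result.

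Sox13, a group D factor that lacks a transactivation domain, was the second gene called. Its probe set 1450191_a_at measured 7.96 and 7.73 in SmoM2 and 7.02 and 6.67 in Sox9cKO, and the genotypes did not overlap. From means of 7.85 ± 0.16 and 6.85 ± 0.24 (SD, n = 2 arrays each), Sox13 fell by 1.00 (SE 0.17), with adjusted p = 0.0271 (limma over all probe sets). Sox13 missed the threshold without SmoM2 replicate 1 (adjusted p = 0.124), without SmoM2 replicate 2 (0.0642) and without Sox9cKO replicate 2 (0.119), with changes of -0.88, -1.12 and -0.83. It passed without Sox9cKO replicate 1 (change -1.17, adjusted p = 0.0383). Sox13 and Sox4 are also known in T cells. Of 6 measured T cell genes 1 was called, against 6.19% of all genes. It was the surface glycoprotein gene Thy1, which rose by 1.99 (adjusted p = 0.000831 by limma in the gene fit). Thy1 measured 5.26 and 4.99 in SmoM2, inside the organ-restricted range, and 7.01 and 7.22 in Sox9cKO, so the size of its rise is not exact. The other measured genes of the list changed by 0.03 (Cd2) to 0.19 (Cd3e). Cd3d, Cd3e and Cd3g, subunits of the receptor complex, measured 3.55 to 5.89 and were not called. The T cell list averaged 4.52 and 4.39 in SmoM2 and 4.83 and 4.98 in Sox9cKO, and its part in the Sox13 values was not tested.

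Sox15, the only group G factor, is known for muscle precursors and trophoblast. The probe set 1452017_at measured 7.36 and 7.50 in SmoM2 and 6.60 and 6.75 in Sox9cKO. The replicates of each genotype lay within 0.16 of each other and the genotypes did not overlap. The means were 7.43 ± 0.09 and 6.67 ± 0.11 (SD, n = 2 arrays each), so Sox15 fell by 0.76 (SE 0.15), or 1.69-fold, with adjusted p = 0.0386 in limma over all probe sets. Without any 1 of the 4 arrays Sox15 missed the threshold in that fit, with adjusted p of 0.0989 to 0.177 and changes of -0.83 to -0.68.

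The upstream sequences of the 3 genes that fell are shown because they are the called members. Each line gives the 250 bases before a RefSeq start (GRCm38.p6), 5′ to 3′ on the gene's strand, with any SOX-type or GLI-type motif in capitals, and none of the 3 windows holds one. Sox2 is chr3:34649745-34649994 on the plus strand, Sox13 chr1:133424213-133424462 on the minus strand and Sox15 chr11:69654787-69655036 on the plus strand.
Sox2: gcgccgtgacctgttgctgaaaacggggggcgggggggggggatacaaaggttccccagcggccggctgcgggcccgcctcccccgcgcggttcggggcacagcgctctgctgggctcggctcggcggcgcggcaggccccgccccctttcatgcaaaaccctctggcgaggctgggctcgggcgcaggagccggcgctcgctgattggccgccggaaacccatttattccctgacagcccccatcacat
Sox13: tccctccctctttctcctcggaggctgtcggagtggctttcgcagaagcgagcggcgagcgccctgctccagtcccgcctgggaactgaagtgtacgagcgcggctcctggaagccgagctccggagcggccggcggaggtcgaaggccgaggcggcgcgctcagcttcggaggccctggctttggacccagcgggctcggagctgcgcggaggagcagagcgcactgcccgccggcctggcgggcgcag
Sox15: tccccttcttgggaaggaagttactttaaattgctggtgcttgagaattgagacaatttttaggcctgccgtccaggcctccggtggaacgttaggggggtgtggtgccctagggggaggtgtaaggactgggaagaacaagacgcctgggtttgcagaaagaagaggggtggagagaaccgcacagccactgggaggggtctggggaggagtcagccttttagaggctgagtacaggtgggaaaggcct

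The motifs searched on both strands were AACAAT and AACAAAG, forms of the site that SOX proteins bind, and GACCACCCA, the site of the GLI factors that carry the Hedgehog signal; they do not contain each other. Over all 32817 RefSeq windows of this length, 9.42% held AACAAT, 5.03% AACAAAG, 13.8% at least 1 of these SOX-type motifs and 0.225% the GLI-type motif. GC content was 72.0% for Sox2, 72.4% for Sox13 and 55.6% for Sox15, against a median of 52.4% over all windows. A window was listed for 8 of the 10 genes, 13 windows in all because Sox6 has 6 starts, and a SOX-type motif was found in 4 of them, all at Sox6. The GLI-type motif was in 0 of 13. A match or its absence describes these letters only, and other forms of these sites were not searched.

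Sox6, a group D factor that forms dimers through a coiled coil and has no activation domain of its own, had the largest positive changes among the SOX probe sets. At 1447655_x_at it measured 3.56 and 3.52 in SmoM2 and 4.89 and 6.62 in Sox9cKO. At 1427677_a_at it measured 4.61 and 4.22 against 5.70 and 7.30. At both, each Sox9cKO array lay above both SmoM2 arrays, and Sox9cKO replicate 2 was far above replicate 1. The changes were 2.22 (SE 0.48, 4.65-fold) and 2.09 (SE 0.46, 4.25-fold), which did not pass in limma over all probe sets (adjusted p = 0.0593 and 0.0628). All SmoM2 values and 1 of the Sox9cKO values at each were inside the organ-restricted range, so these sizes are not exact. The changes passed when either Sox9cKO array was left out, at 3.08 and 2.89 without replicate 1 (adjusted p = 0.00143 and 0.00323) and 1.35 and 1.29 without replicate 2 (0.0195 and 0.0439). In those fits a probe set's own spread came from the SmoM2 pair alone, and limma combined it with the spread pooled over all probe sets. The remaining Sox9cKO array was assumed to vary in the same way. These were the only SOX probe sets at least 2-fold higher with genotypes not overlapping, 2 of 34 against 1.34% of all probe sets.

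The remaining Sox6 probe sets read otherwise. The probe set 1434918_at, which has the highest mean and stands for the gene, measured 5.52 and 5.99 in SmoM2 and 5.92 and 7.15 in Sox9cKO, so the genotypes overlapped and only Sox9cKO replicate 2 stood above. Its change was 0.78 (SE 0.38, adjusted p = 0.411 over all probe sets), or 1.39 without Sox9cKO replicate 1 (adjusted p = 0.0421) and 0.17 without Sox9cKO replicate 2 (adjusted p = 0.893). The probe set 1426018_a_at stayed between 4.01 and 4.30 on every array (log2 change 0.07). Sox6os, annotated as a transcript opposite Sox6, was dim at 3.78 to 3.97 (log2 change 0.00). The labels do not say which Sox6 transcripts each probe set reads. Sox6 is also known in muscle fibres and red cell precursors. The skeletal muscle list averaged 4.74 and 4.73 in SmoM2 and 4.94 and 4.93 in Sox9cKO, with 7 of 8 genes in the organ-restricted range. Myh2, a fast myosin, was the 1 gene called (log2 change 0.78), against 6.19% of all genes. Myh2 missed the threshold without SmoM2 replicate 1 (adjusted p = 0.132), without SmoM2 replicate 2 (0.107) and without Sox9cKO replicate 2 (0.105). Of 3 measured red cell genes 0 were called, and all 3 were in the organ-restricted range. Their list averaged 4.31 and 4.49 in SmoM2 and 4.26 and 4.37 in Sox9cKO. The part of muscle or red cells in the Sox6 values was not tested.

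Sox6 windows are shown because, of the 8 members with a window, this gene alone held AACAAT or AACAAAG. The first is the most upstream start, chr7:116038745-116038994 on the minus strand, with AACAAAG beginning 114 bases before the start. The fifth start, chr7:115824711-115824960 on the minus strand, holds AACAAT on both strands, beginning 236 and 225 bases before it.
Sox6 start 1: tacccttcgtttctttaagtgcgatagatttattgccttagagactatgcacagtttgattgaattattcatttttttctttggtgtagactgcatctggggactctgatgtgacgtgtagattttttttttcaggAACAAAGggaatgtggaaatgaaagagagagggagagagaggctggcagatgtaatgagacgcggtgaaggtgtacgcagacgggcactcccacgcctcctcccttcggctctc
Sox6 start 5: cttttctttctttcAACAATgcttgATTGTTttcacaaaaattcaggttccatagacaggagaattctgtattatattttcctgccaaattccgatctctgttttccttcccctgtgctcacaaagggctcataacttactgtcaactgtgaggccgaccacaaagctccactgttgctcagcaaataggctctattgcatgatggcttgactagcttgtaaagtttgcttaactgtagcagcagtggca

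Sox5, the close relative of Sox6 in group D, was highest in the other Sox9cKO array. At 1455535_at, the brightest of its 7 probe sets, the signal was 5.90 and 5.43 in SmoM2, then 7.06 and 5.92 in Sox9cKO. At 1423500_a_at it was 5.41 and 5.11 against 6.77 and 5.06. Sox9cKO replicate 2 lay at the level of the SmoM2 arrays at both. None of the 7 passed, with changes of 0.06 to 0.83 and adjusted p of 0.348 or higher, and the 95% interval of the change at 1455535_at ran from -0.02 to 1.67. Without Sox9cKO replicate 2, which leaves a probe set's own spread to the SmoM2 pair, the changes were 1.40 at 1455535_at, 1.51 at 1423500_a_at and 1.34 at a dimmer probe set. Without Sox9cKO replicate 1 the same changes were 0.25, -0.20 and -0.058.

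The replicates of Sox9cKO thus differed in opposite ways for the 2 genes. Sox9cKO replicate 1 was the highest of the 4 arrays at 7 of 7 Sox5 probe sets, and Sox9cKO replicate 2 at 4 of 4 Sox6 probe sets. Over all probe sets these arrays were highest at 24.6% and 26.4%. Replicate 1 exceeded replicate 2 by 1.71 at 1423500_a_at of Sox5 and by 1.15 at 1455535_at, while replicate 1 minus replicate 2 was -1.73 at 1447655_x_at of Sox6 and -1.60 at 1427677_a_at. The gap between the Sox9cKO arrays had a median of 0.16 and a 99th percentile of 1.01 over all probe sets. In SmoM2, replicate 1 was also above replicate 2 at every Sox5 probe set, by 0.05 at 1440827_x_at to 0.47 at 1455535_at. For Sox5 the order of the replicates was therefore not particular to Sox9cKO. At the Sox6 probe sets, SmoM2 replicate 1 minus replicate 2 took both signs, from -0.47 at 1434918_at to 0.39 at 1427677_a_at. Probe sets of the same gene share their samples, so they are not separate evidence.

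**Figure D2:**
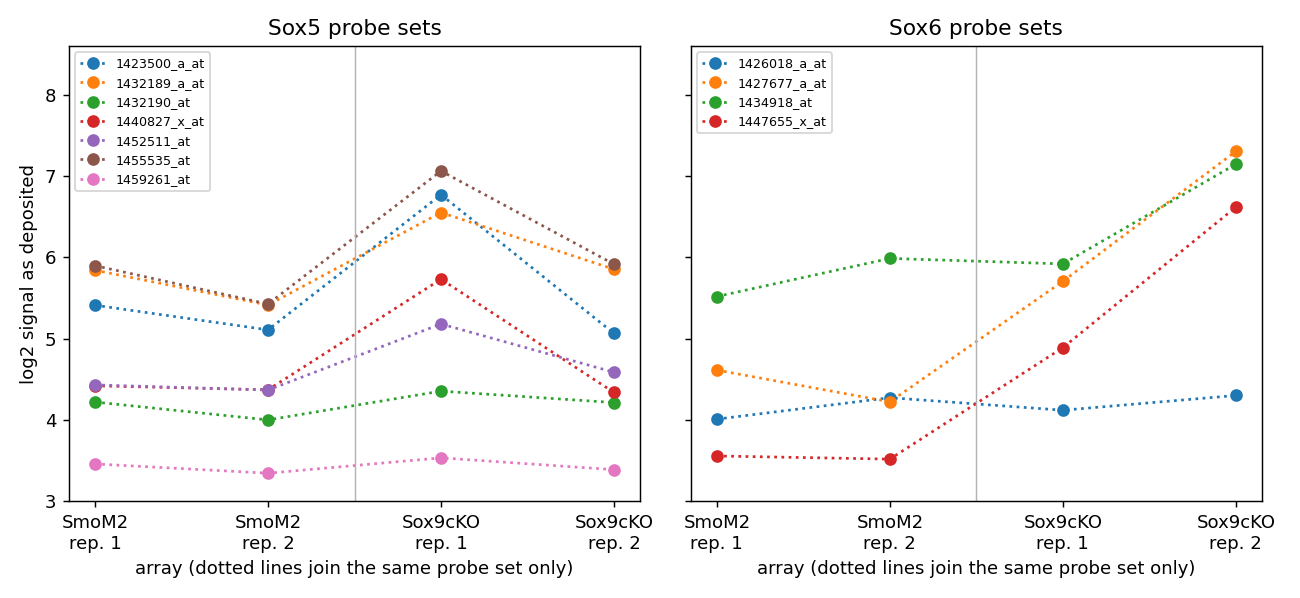
Log2 signal as deposited (y axis) of each Sox5 probe set (left) and Sox6 probe set (right) on the 4 arrays (x axis), with dotted lines joining points of the same probe set. Sox5 is highest in Sox9cKO replicate 1, for example 7.06 against 5.92 in replicate 2 at 1455535_at, and Sox6 is highest in Sox9cKO replicate 2, for example 7.30 against 5.70 at 1427677_a_at.

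By the likeness measure used for Sox2, the genes closest to Sox5 over the 4 arrays were Arhgap20 (0.03), Pnliprp1, a pancreatic lipase-related gene (0.08), and the tetraspanin Tspan6 (0.10). Arhgap20 measured 5.03 and 4.54 in SmoM2 and 6.13 and 4.98 in Sox9cKO. None of the 3 was called in the gene fit (adjusted p of 0.259 to 0.326).

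The group C genes, which act in embryonic progenitors, gave no call. Sox4 was bright at 1433575_at, where SmoM2 arrays read 11.80 and 11.87 and Sox9cKO arrays 12.28 and 12.01. The Sox9cKO arrays were higher without overlap, by 0.31 (SE 0.15, adjusted p = 0.430), and the 95% interval ran from -0.05 to 0.67. The change nearest the threshold among its 8 probe sets was 0.59 at 1419157_at (6.03 and 6.53 against 6.84 and 6.90, adjusted p = 0.186). At 1419155_a_at and 1419156_at, both bright, the changes were 0.29 and 0.04 with overlapping genotypes. Leaving out 1 array gave changes of 0.18 to 0.44 at 1433575_at, 0.34 to 0.84 at 1419157_at, 0.00064 to 0.57 at 1419155_a_at and -0.13 to 0.22 at 1419156_at, none of which passed. None of the 8 was called.

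Sox11, the group C factor of embryonic skin and nerve, was not above the organ-restricted range on any array at any of its 6 probe sets. Its signals lay between 3.50 and 5.56 and its changes between -0.14 and 0.36, with adjusted p of 0.354 or higher. Sox12 was also inside the range at all 3 probe sets. At the brightest, 1455562_at, Sox12 measured 6.13 and 6.04 in SmoM2 and 6.32 and 6.27 in Sox9cKO, a change of 0.21 that did not pass (adjusted p = 0.580). Signals at this level do not tell a low transcript from none.

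**Figure D3:**
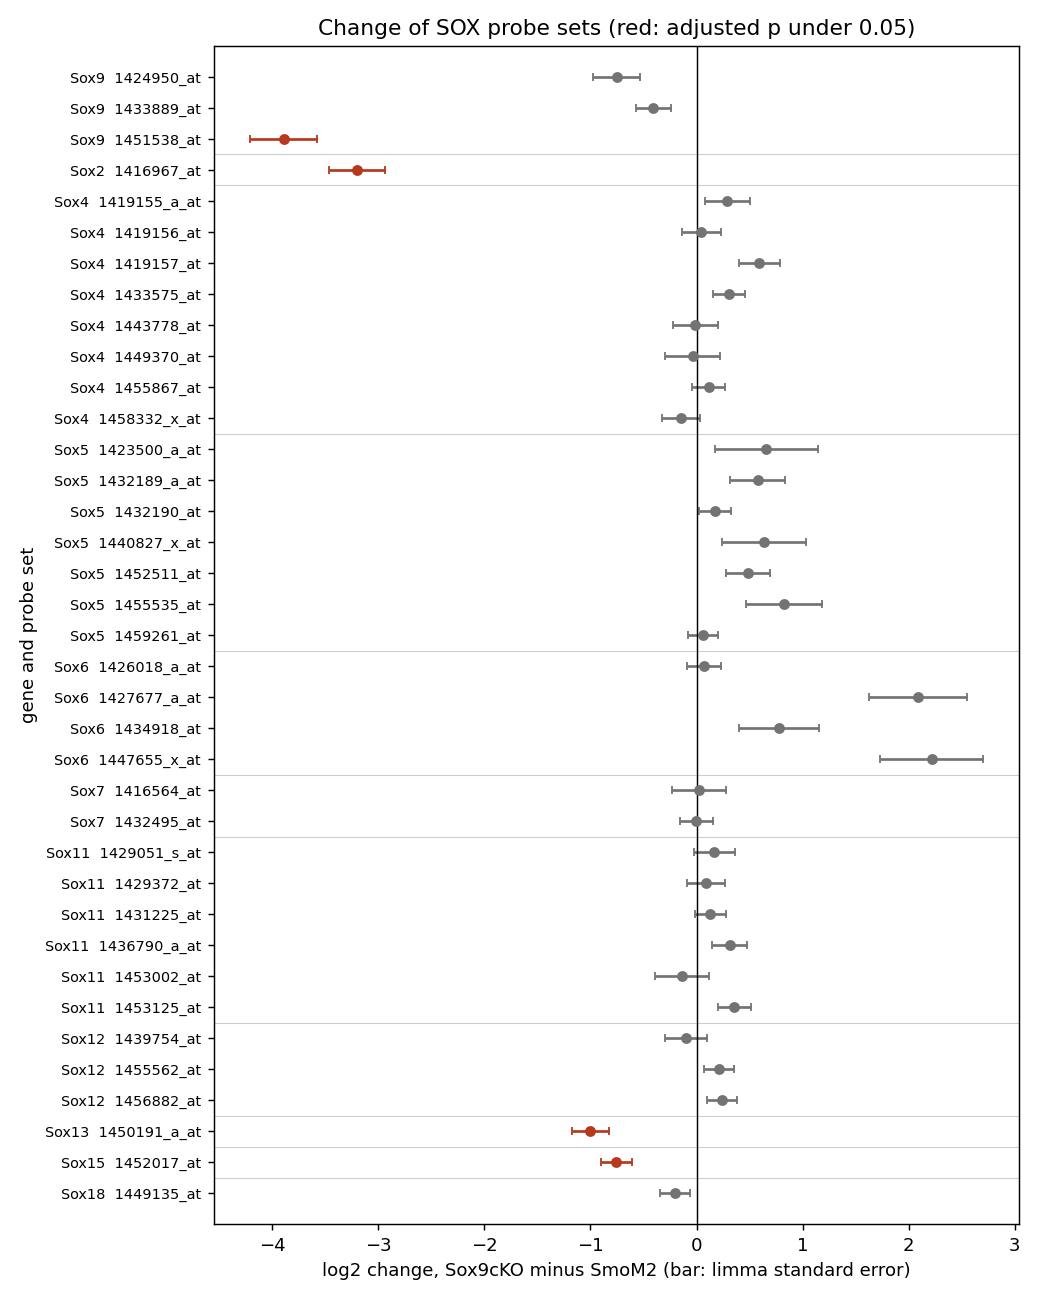
Log2 change, Sox9cKO minus SmoM2 (x axis), of 3 Sox9 and 34 other SOX probe sets (y axis), with limma standard errors as bars and an adjusted p under 0.05 in red. Sox2 (-3.20), Sox13, Sox15 (-0.76) and the Sox9 probe set 1451538_at (-3.89) are red, and Sox6 has the widest bars with those of Sox5.

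The group F genes are known from blood and lymph vessels, and Sox18 also from the vessels and dermal papilla of hair-bearing skin. Sox7 was bright at 1416564_at, at 9.80 and 9.00 in SmoM2 and at 9.42 and 9.43 in Sox9cKO. Both Sox9cKO values fell between the SmoM2 values, and the change was 0.02 (SE 0.25, adjusted p = 0.984) with a 95% interval from -0.58 to 0.62. Its other probe set was dim, at 4.33 to 4.57. Sox18 measured 4.99 and 4.82 against 4.67 and 4.73 (log2 change -0.20, adjusted p = 0.617), inside the organ-restricted range.

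Endothelial markers were read beside them. Of 18 measured endothelial genes 16 had means in the organ-restricted range, including Pecam1 at 4.58 to 4.72 and Cdh5 at 3.95 to 4.22, the defining adhesion molecules of these cells. The list averaged 5.00 and 5.01 in SmoM2 and 4.84 and 4.91 in Sox9cKO. The 1 gene called of 18, against 6.19% of all genes, was Lyve1, a hyaluronan receptor of lymphatic endothelium and some macrophages. Lyve1 fell by 2.51 in the gene fit, from 6.23 and 6.41 to 4.01 and 3.62. Both Sox9cKO values of Lyve1 and its value in SmoM2 replicate 1 were inside the organ-restricted range, so the size of its fall is not exact. The 2 endothelial genes with means above that range were Egfl7, at 6.70 to 7.50, and Eng, at 6.21 to 6.57. Of 9 measured Langerhans and myeloid cell genes 2 were called in the gene fit, against 6.19% of all genes. H2-Aa rose by 1.87, from 5.47 and 5.13, inside the organ-restricted range, to 7.22 and 7.11. Epcam, the brightest of the list, fell by 1.43, from 11.73 and 12.09 to 10.50 and 10.46. Cd207 (4.54 to 5.39) and Tyrobp (4.57 to 5.08) stayed inside that range, and H2-Ab1 changed by 0.09. Whether Epcam read Langerhans cells here was not tested. Of the 9 changes 7 were positive and 2 negative, Epcam and Itgax. Without probe sets ending _x_at or _s_at, 8 genes were measured and 1 was called. With Epcam included, that list averaged 6.35 and 6.13 in SmoM2 and 6.49 and 6.47 in Sox9cKO. The part of endothelial or myeloid cells in the Sox7 values was not tested.

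Of 9 measured genes (Sox1, Sox3, Sox8, Sox10, Sox14, Sox17, Sox21, Sox30 and Sry) 0 were called by limma in the gene fit. Over all genes 6.19% were called, so the count is near the background. At an unadjusted p under 0.05 there were 0 of the 9, against 3234 of all 18193 genes. Their median change was 0.14 against 0.02 over all genes. Sox21, a factor of the hair cuticle and sebaceous gland, measured 8.39 and 8.66 in SmoM2 and 8.21 and 9.12 in Sox9cKO at 1437059_at, and 6.93 and 6.69 against 6.93 and 7.72 at 1451835_at. Sox9cKO replicate 2 was the highest array for it, as for Sox6. Sox10, the neural crest factor of melanocytes and Schwann cells, measured 6.42 to 6.63 at its brightest probe set, and none of 9 melanocyte genes or 6 measured Schwann cell genes was called. The melanocyte list averaged 5.77 and 5.63 in SmoM2 and 5.82 and 6.08 in Sox9cKO (replicate 1 first), and the Schwann cell list was also highest in Sox9cKO replicate 2, at 6.47. The part of these cells in the Sox21 and Sox6 values of that array was not tested.

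Among factors that share the HMG box but are not SOX proteins, 2 rose and 2 fell of 17 measured, against 6.19% of all genes called. Tox, a nuclear factor of T cell development, rose by 1.17 (SE 0.13), from 4.62 and 4.61 to 5.77 and 5.80, all inside the organ-restricted range. Hmgb2, a chromatin protein of dividing cells, rose by 0.71 (SE 0.16, adjusted p = 0.0481 in the gene fit). The Wnt effectors Tcf7l2 and Tcf7l1 fell by 1.20 and 1.12, Tcf7l2 from 8.69 and 8.86 to 7.75 and 7.40 and Tcf7l1 from 8.95 and 8.87 to 7.96 and 7.62. Lef1 of this list went the other way, at 5.71 and 5.74 in SmoM2 and 7.02 and 6.26 in Sox9cKO. Its change of 0.91 did not pass (adjusted p = 0.0765 by limma in the gene fit). Only its value in Sox9cKO replicate 1 was above the organ-restricted range. Hmgb2 missed the threshold without any 1 array (adjusted p of 0.0747 to 0.221), Tcf7l1 without SmoM2 replicate 1 or 2 (0.0625 and 0.0536) and Tcf7l2 without SmoM2 replicate 2 (0.0649), while Tox was called in all 4 such fits.

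Genes known to respond to SOX factors elsewhere were read next, against a share of 6.19% called among all genes, and counts of 0 or 1 in lists this small are not read as differing from it. Of 7 genes linked to group C factors in other tissues 1 was called, Tubb3, the neuronal beta tubulin, which fell by 3.08 (SE 0.22) from 7.88 and 8.53 to 5.18 and 5.07. Both Sox9cKO values were inside the organ-restricted range, so the size of this fall is not exact. Fscn1, an actin-bundling protein gene, measured 11.78 and 12.09 against 11.47 and 10.74 and did not pass (log2 change -0.83, adjusted p = 0.118), and Stmn1, a microtubule regulator, had a log2 difference of 0.58 (adjusted p = 0.0512). Ezh2 had a log2 difference of 0.42 (adjusted p = 0.143). At an unadjusted p under 0.05 in the gene fit there were 4 of the 7, against 3234 of all 18193 genes. Of these, Tubb3 and Fscn1 were lower in Sox9cKO, and Stmn1 and Ezh2 higher. Of 17 cartilage genes that depend on Sox5, Sox6 and Sox9 in chondrocytes 0 were called by limma. An unadjusted p under 0.05 was found for 4 of them, and for 3234 of all 18193 genes. Of the 17, 16 were in the organ-restricted range, with Col2a1 at 4.85 to 5.30 and Acan at 4.93 to 5.31.

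Of 12 measured genes of POU, PAX and other factors that partner SOX proteins, 1 was called, against 6.19% of all genes, which is near the background. Pou3f1, a POU factor of suprabasal keratinocytes, rose by 1.78 (SE 0.15), from 9.88 and 9.60 to 11.52 and 11.52. Pou2f3, a second epidermal POU factor, measured 5.88 and 5.82 against 6.16 and 6.80 (log2 change 0.63, adjusted p = 0.172). These lists share genes with lists examined earlier in these data, and their counts are a description.

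**Figure D4:**
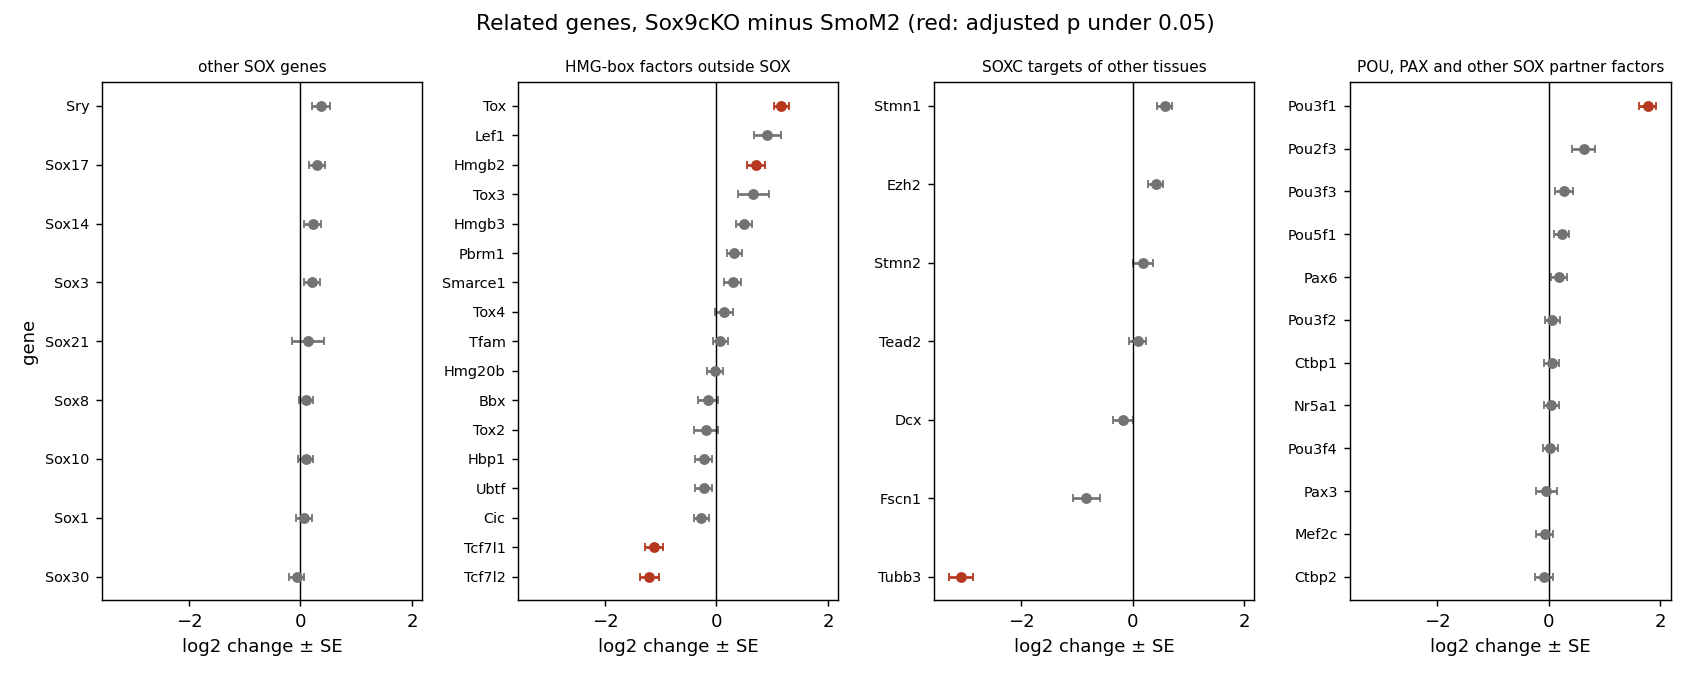
Log2 change ± SE (x axis), Sox9cKO minus SmoM2, of each measured gene (y axis) in 4 lists related to SOX factors, with an adjusted p under 0.05 in red. The called genes are Tox, Hmgb2, Tcf7l1, Tcf7l2, Tubb3 (-3.08) and Pou3f1 (1.78), and no other SOX gene is red.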

How the data were processed

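The authors deposited log2 signals, 1 per probe set and array, for 4 Affymetrix 3' arrays. Their range shows a log2 scale. The sources used here do not say how the signals were normalized and summarised, and the submitters' processing notes name R 2.14.0. The medians are nearly equal, so a shift common to most transcripts would not be seen. Of 45101 probe sets, 64 controls were left out and 45037 were tested. The platform annotation gave 1 symbol for 34945, several for 932 and none for 9160. For 34741 the symbol was taken by entrez ID from the RefSeq table of GRCm38.p6.

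The groups were compared with limma 3.58.1 in R 4.3.3 (lmFit and eBayes, no covariate, two-sided, Benjamini-Hochberg) over all probe sets and, for lists, over 18193 genes at the probe set of highest mean. The degrees of freedom with the prior were 6.99 and 7.17. The code of the probe set fit was also run on simulated data, and no result here rests on that run. The number of arrays limits the precision. Named are all member and Sox9 probe sets, the other SOX genes, up to 4 called genes of each list, markers, and the 3 genes of closest pattern to the member gene of smallest p in each direction in the gene fit (Sox2 and Sox5). Genes beyond this rule, such as Fscn1, Stmn1, Ezh2, Lef1, Pou2f3, Col2a1, Acan and the neighbours, were added after values were seen. The members and lists were chosen with earlier results of these data known. Alternatives were the leave-out of each array, a replicate block, an intensity trend and robust prior, a filter on dim signals, quantile normalization, and other choices of probe set.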

Additional observations from a re-analysis of the deposited data

How the results depend on the processing

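Sox2 was called lower under every alternative that kept its probe set; the filter on dim signals left it out. Leaving out 1 array gave 1 to 2 SOX probe sets called lower and 0 to 5 higher, and 1 to 2 SOX genes lower and 0 to 1 higher. Over all probe sets it gave 616 to 679 lower and 372 to 514 higher, over all genes 335 to 502 and 199 to 404. It gave 1 to 4 called genes in the HMG-box list, 1 to 2 in the group C list, 0 to 1 in the cartilage list and 1 to 2 in the POU and PAX list. Each such fit holds 3 samples. The own spread of a probe set or gene then comes from the complete pair, and limma combines it with the spread pooled over all of them. It turned the sign at 15 of 34 SOX probe sets, none of them called.
The log2 changes at those 15 ran from -0.13 to 0.22, -0.23 to 0.21, -0.42 to 0.35, -0.026 to 0.25 and -0.36 to 0.076 for Sox4, from -0.20 to 1.51, -0.058 to 1.34 and -0.013 to 0.13 for Sox5, and from -0.063 to 0.20 for Sox6. They ran from -0.38 to 0.42 and -0.12 to 0.12 for Sox7, from -0.085 to 0.42 (also the range of its gene value), -0.10 to 0.28 and -0.46 to 0.19 for Sox11, and from -0.34 to 0.14 for Sox12.

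The replicate numbers do not pair the samples by the labels, and the deviations of replicate 1 from its group mean correlated at 0.121 between groups. With replicate as a block, 2007 probe sets were called lower and 1467 higher, 1040 genes lower and 879 higher, 4 SOX probe sets higher (of Sox5 and Sox6), 2 SOX genes higher and 3 genes of the group C list, and the cause was not tested. An intensity trend with robust prior, the dim filter, averaging each gene's probe sets, and leaving out probe sets ending _x_at or _s_at each gave 2 called genes in the group C list. Sox11 as a gene was at -0.14 without _x_at and _s_at probe sets, since another probe set then stood for it. Of the changes of single probe sets and genes under these alternatives, 405 kept direction and call, 26 turned, 17 gained a call and 27 lost one.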
